A study of Mus musculus with 3 samples.

Results

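Peaks of the nuclear receptors REV-ERB alpha and beta coincided at many sites in mouse liver, and the sites described here are those at which the beta library was relatively strong. Peaks of the alpha and beta lists were paired where their windows overlapped by at least 1 bp. For each pair the number of unique tag positions in the alpha window (distinct mapped positions of sequenced tags) was divided by that in the beta window. The log2 of this ratio was set against its median over all pairs, which corresponded to 0.944 alpha positions for each beta position. Pairs with a centred value of -1 or less, so at least 2-fold below the median ratio, were taken as beta-leaning. There were 1017 of them among 13314 shared pairs, or 7.64% (95% Wilson interval 7.20% to 8.10%). Because the pairs were chosen by the ratio of these libraries, every alpha to beta value below describes them and supports nothing further. A further 869 pairs (6.53%) leaned to alpha by the same size, and 3809 pairs within 0.25 of the median are called balanced.

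The samples were 3 liver libraries of male C57BL/6 mice aged 20 weeks, kept for 3 days under a cycle of 12 hours of light and 12 hours of dark, with tissue taken at zeitgeber time 8 (8 hours after lights on). One library was made by chromatin immunoprecipitation with an antibody against REV-ERB alpha, 1 with an antibody against REV-ERB beta, and 1 was input, that is, chromatin without immunoprecipitation. The labels name no allele, and no agent apart from the fixatives. Each antibody had a single library, so values carry no replicate error, the receptors could not be compared by a test, and intervals cover counting error only. How far each antibody recognised the other receptor was not tested.

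REV-ERB alpha and REV-ERB beta, encoded by Nr1d1 and Nr1d2, are nuclear receptors of the circadian clock. They bind a hormone receptor half-site preceded by an A/T-rich stretch, alone or in pairs, lack the helix by which most nuclear receptors recruit coactivators, and repress transcription by recruiting the NCoR corepressor with histone deacetylase HDAC3. In liver they repress the clock gene Arntl and many genes of lipid metabolism, and the receptors partly stand in for one another. Positions are in the mm9 assembly and are named without genes, since no mm9 gene annotation or sequence was used here.

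The alpha list held 24461 peaks and 910669 tags in windows of 153 bp, and the beta list 22097 peaks and 1227074 tags in windows of 210 bp. The beta list as used here had 0 peaks on chromosome 8, so pairs came from 19 chromosomes.

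Beta-leaning sites were strong beta peaks that coincided with ordinary alpha peaks. Their beta windows held a median of 62 unique positions (quartiles 46 and 86, range 26 to 265), against 33 over all shared pairs. Their alpha windows held a median of 23 (quartiles 17 and 32, range 12 to 117), against 30 over all shared pairs. In the whole beta list their median stood at percentile 88.5, and 453 of them (44.5%) were in its top 10%. The rule itself kept them out of the lower 50% of the beta list, whose median was 25 positions, since at least 26 were needed to qualify. In the whole alpha list their median stood at percentile 48.7, and 45 (4.42%) were in the top 10%. Alpha-leaning pairs stood the other way round, with medians at percentile 81.3 among alpha peaks and 34.5 among beta peaks.

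**Figure D1:**
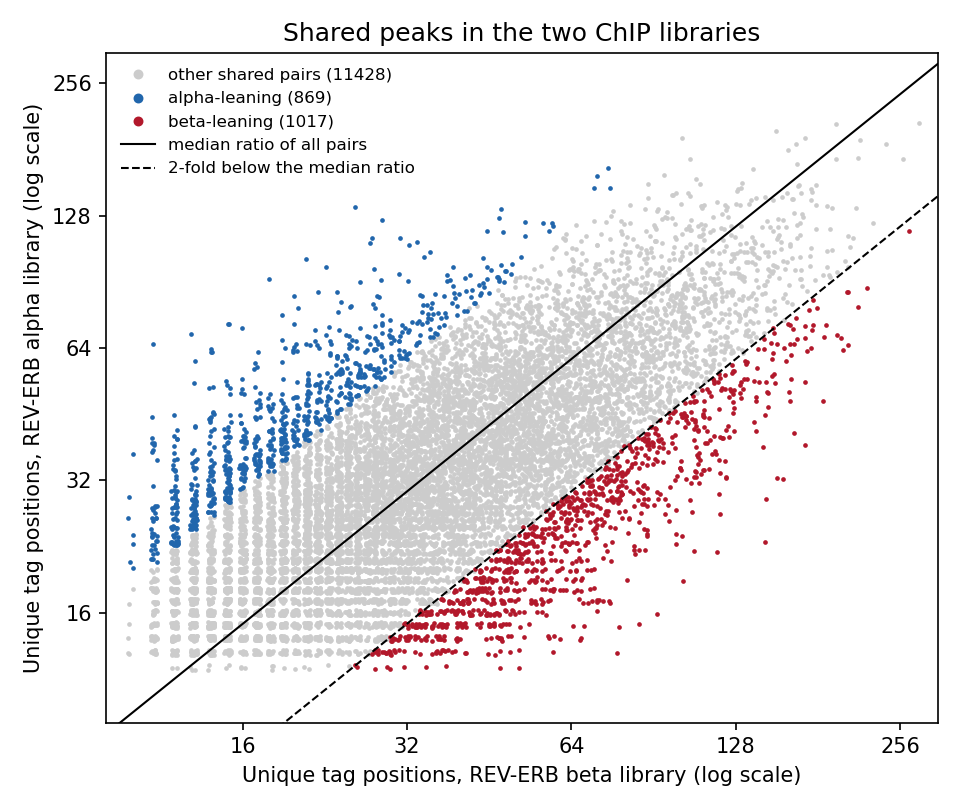
Unique tag positions of the 13314 shared pairs in the REV-ERB beta library (x axis) and the REV-ERB alpha library (y axis), both on log scales; each point is 1 pair, moved slightly at random so that equal counts can be seen. The 1017 beta-leaning pairs lie below the dashed line, 2-fold under the median ratio, and reach from 26 to 265 beta positions.

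The strongest shared beta sites held many of these pairs. Of the 100 shared pairs with the most beta positions, 35 were beta-leaning and 0 alpha-leaning. Of the 1000 with the most beta positions, 239 were beta-leaning. Ranked by alpha positions instead, the top 100 held 0 beta-leaning and 11 alpha-leaning pairs, and the top 1000 held 13 and 115. A ranking by 1 library favours pairs that lean to it, and both rankings use the counts that chose the pairs. The 35 in 100 when ranked by beta and the 11 in 100 when ranked by alpha therefore describe the lists only.

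By the geometric mean of both counts, which weighs them equally, beta-leaning pairs were scarce among the weakest sites. They made up 0.900% of the weakest quintile of shared pairs (24 of 2666), then 7.74%, 10.2% and 9.80%, and 9.54% of the strongest quintile (254 of 2663, Wilson interval 8.48% to 10.7%). Alpha-leaning pairs were most frequent in the second quintile, at 9.32%, and made up 2.97% of the strongest (2.39% to 3.68%). The median centred ratio itself shifted from 0.20 in the weakest quintile to -0.22 in the strongest. When each decile of the pairs by height was centred on its own median, 888 pairs were beta-leaning, 835 of them also by the rule used here. The lists set a limit at the weak end, so the low share in the weakest quintile was in part fixed by the rule. Beta-leaning pairs began at a height of 17.7 and alpha-leaning pairs at 14.1, while that quintile ran from 11.4 to 20.4. The lowest alpha peak in a pair had 12 unique positions, so a pair needed at least 26 beta positions to qualify. That left 8612 pairs, of which 11.8% (11.1% to 12.5%) were beta-leaning. Another 2021 beta peaks of at least that height had no overlapping alpha peak and could not be scored, and 142 of those reached the 62 positions of the median beta-leaning site.

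**Figure D2:**
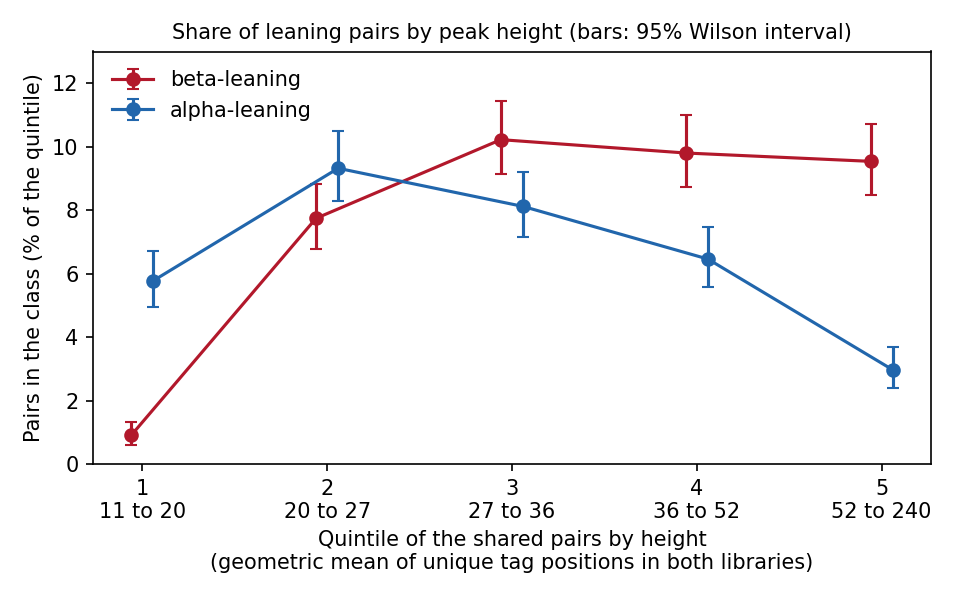
Share of beta-leaning and alpha-leaning pairs (y axis, % of each quintile) in 5 groups of shared pairs ordered by height (x axis, geometric mean of unique tag positions in both libraries); bars are 95% Wilson intervals. The beta-leaning share is 0.900% in the weakest quintile and between 7.74% and 10.2% in the others, while the alpha-leaning share falls to 2.97% in the strongest quintile.

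At most of these sites the lean was not far from the threshold. The median centred log2 ratio was -1.23 (quartiles -1.44 and -1.11), a ratio 2.34-fold below the median. At 471 sites (46.3%) it was -1.25 or less, at 216 (21.2%) -1.5 or less, at 28 (2.75%) -2 or less and at 2 sites -2.5 or less. The exact (Clopper-Pearson) 95% interval from the counts lay wholly below 0 at 1015 sites and wholly below -1 at 98 sites (9.64%). At the other 919 the interval reached above the threshold, so that many sites could fall on either side of it by counting error alone. The 3 pairs just inside the threshold held 25 alpha and 53 beta positions (chr13:51952697-51952907 and chr5:121017073-121017283) or 50 and 106 (chr6:142947226-142947436). The 3 just outside it held 42 and 89 (chr13:96629388-96629598), 51 and 108 (chr1:157655537-157655747) and 34 and 72 (chr11:72317939-72318149). The values ran on across the threshold without a gap.

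The site with the strongest lean lay at chr3:120889883-120890093 (beta window). It held 146 unique positions and 231 tags in the beta library, 23 positions and 25 tags in the alpha library, and 1 input tag in the beta window and 0 in the alpha window. Its ratio was 5.99-fold below the median (centred log2 -2.58, exact interval -3.28 to -1.94), and the beta peak ranked 154 in the beta list while the alpha peak ranked 12197 in the alpha list. The site at chr3:63144464-63144674 held 78 beta and 13 alpha positions (-2.50, -3.47 to -1.64). The site at chr11:21449948-21450158 held 91 beta and 16 alpha positions (-2.42), and that at chr1:163906536-163906746 held 85 and 15 (-2.42). The beta peaks of these 3 sites ranked 1416, 927 and 1144 in the beta list and their alpha peaks 23135, 18280 and 19611 in the alpha list, so all of them paired a peak from the upper part of the beta list with one from the lower part of the alpha list.

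The next 6 sites by lean included 2 whose alpha peaks stood in the upper part of the alpha list, on chromosomes 12 and 17 at ranks 8892 and 7670. The site at chr6:23076802-23077012 held 120 beta and 22 alpha positions, and chr3:148768266-148768476 held 102 and 19. The site at chr4:128991234-128991444 held 78 and 15, with 0 input tags in either window. The alpha and beta centres at this site were 115 bp apart, against 2 bp at the chromosome 6 site and 10 bp at the chromosome 3 site. The site at chr12:33377505-33377715 held 146 beta and 29 alpha positions with centres 128 bp apart. The site at chr5:66486451-66486661 held 109 and 22, and chr17:26659833-26660043 held 157 and 32. Over these 10 sites the centred ratio ran from -2.58 to -2.21 with unique positions and from -2.88 to -2.31 with all tags, and input in the beta window from 0 to 5 tags.

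The beta-leaning sites with the most beta positions had alpha peaks of above-median height too. The first lay at chr12:33996707-33996917, the second highest peak of the beta list by unique positions, with 265 beta positions (626 tags), 117 alpha positions (162 tags) and 5 and 4 input tags in the beta and alpha windows. Its centred ratio was -1.10 (exact interval -1.42 to -0.78), so its interval included values on both sides of the threshold. The site at chr19:37517356-37517566 held 222 beta and 87 alpha positions (-1.27), and chr1:132575251-132575461 held 216 and 79 (-1.37). Both were among the first 10 of the beta list, at ranks 6 and 8, and at ranks 608 and 868 of the alpha list.

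Further down the same ranking, chr7:99969691-99969901 held 207 beta and 66 alpha positions (-1.57, interval -1.99 to -1.16). The site at chr17:28827858-28828068 held 202 and 63 (-1.60, -2.03 to -1.18), and chr12:105314954-105315164 held 202 and 67 (-1.51, -1.93 to -1.10). The intervals of these 3 sites, and that of chr16:34069628-34069838 (196 and 69 positions, -1.42, -1.84 to -1.02), lay wholly below the threshold. The site at chr11:119806843-119807053 held 205 and 85, chr1:192028471-192028681 held 203 and 85, and chr13:41923772-41923982 held 187 and 73; their intervals reached above it. None of the 10 sites with the most beta positions was among the 10 with the strongest lean. Of the 5 beta-leaning sites with the most alpha positions, 4 were already among these 10. The remaining site lay at chr11:63675723-63675933, with 82 alpha and 176 beta positions (-1.02) and centres 141 bp apart.

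The other heights in the lists, which come from the same libraries, moved with the unique positions to different degrees. With all tags in the window, 943 of the 1017 sites (92.7%) were at least 2-fold below that measure's own median, against a background of 9.71% of all pairs, and their median was -1.35. With tags over input tags 732 sites (72.0%) were, against 13.2% of all pairs. With tag density over the surrounding 10 kb 503 (49.5%) were, against 8.31%, with a median of -0.99. All 3 of these measures placed 379 sites (37.3%) past the threshold. Beta peaks at these sites had a median density 24.0 times that of their surroundings and alpha peaks 10.5 times, against 14.6 and 13.3 over all shared pairs. The median number of tags per position was 1.67 on the beta side, against 1.63 over all pairs, and 1.14 on the alpha side, against 1.17. Set beside other shared pairs of like beta height it was not higher on the beta side: 1.59 against 1.59 for 26 to 46 beta positions, 1.60 against 1.65 for 47 to 62, 1.68 against 1.71 for 63 to 86 and 1.80 against 1.82 for 87 to 265. The direction of the lean was the same at all 1017 sites with all tags, at 981 with tags over input and at 986 with density. Over all 13314 shared pairs, 6642, 6656 and 6657 lay below the median of the same measures. All 3 measures use the tags of the windows whose unique positions chose the sites. None of these counts is therefore independent of that choice.

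Chromatin around the peak windows leaned the same way, but less. The 10 kb around each peak, with the window itself taken out, held a median of 205 beta tags and 169 alpha tags at beta-leaning sites, against 167 and 178 over all shared pairs. Beside other shared pairs of like beta height the surrounding beta tags were fewer in 3 of 4 bands: 143 against 169 for 26 to 46 beta positions, 179 against 218 for 47 to 62 and 225 against 261 for 63 to 86. For 87 to 265 positions they were 338 against 329. Beside other shared pairs of like alpha height the surrounding alpha tags were fewer for 12 to 17 alpha positions, at 128 against 135. They were more for 18 to 23 (162 against 144), 24 to 32 (174.5 against 171) and 33 to 117 (233 against 217). The centred log2 ratio of these surrounding tags had a median of -0.39 (quartiles -0.74 and -0.05), and it was below 0 at 794 sites (78.1%). At 88 sites (8.65%) it was -1 or less, against 2.46% of all pairs. At alpha-leaning pairs the median was 0.35 and at balanced pairs 0.01. The surroundings hold the shoulders of the peak itself and any neighbouring peak. Among the 237 beta-leaning sites with no other peak of either list within 10 kb, the median was -0.17, and 64.6% (58.3% to 70.4%) were below 0, against 0.15 and 38.5% (36.9% to 40.1%) of all shared pairs without such a neighbour. At the 780 sites with a neighbour it was -0.43, against -0.06 for all such pairs. How much of the surrounding tags belonged to the shoulders was not measured. Every alpha and beta peak of a pair was also several times denser than its surroundings. This set an upper limit on the tags that could surround a weak window in either library. How far this limit shaped the surrounding tags and their ratio at beta-leaning sites was not tested.

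**Figure D3:**
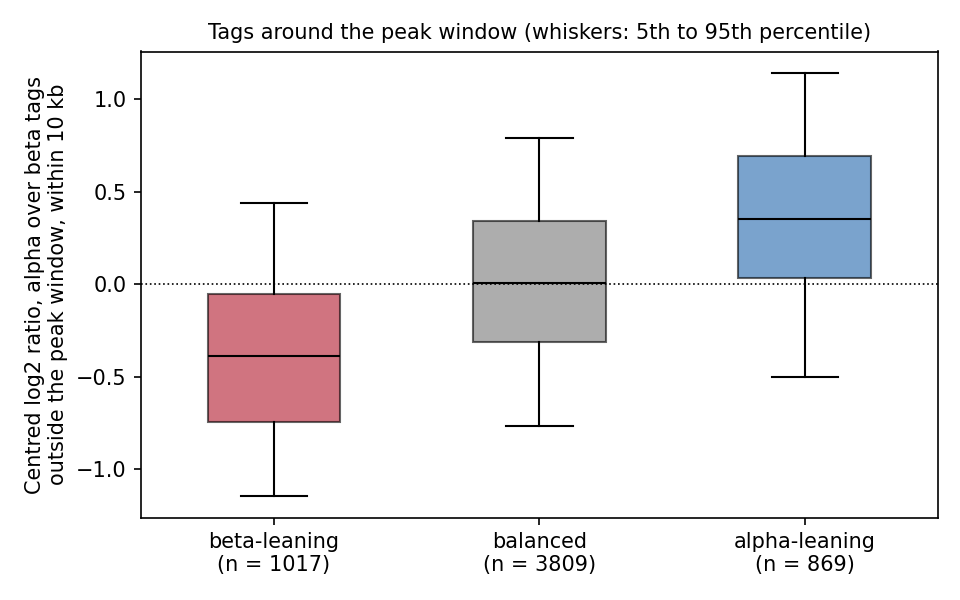
Centred log2 ratio of alpha to beta tags outside the peak window but within the 10 kb around it (y axis) for beta-leaning, balanced and alpha-leaning pairs (x axis); boxes show quartiles and the median, whiskers the 5th and 95th percentiles over pairs. The medians are -0.39, 0.01 and 0.35.

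Input, which the rule did not use, was low at these sites. The mean was 3.19 input tags in the beta window (SD over sites 2.42) against 3.80 over all shared pairs, and 2.23 in the alpha window (SD 1.80) against 2.81. A total of 88 sites (8.65%, interval 7.08% to 10.5%) had 0 input tags in the beta window, against 6.22% (5.82% to 6.64%) of all pairs. Input in the beta window was also lower than at other shared pairs of like beta height, with 2.62 against 4.08 tags for 26 to 46 beta positions, 2.96 against 4.58 for 47 to 62, 3.21 against 4.69 for 63 to 86 and 4.01 against 5.28 for 87 to 265. In the alpha window, beside other shared pairs of like alpha height, the difference was smaller: 1.50 against 1.63 input tags for 12 to 17 alpha positions, 2.01 against 2.09 for 18 to 23, 2.36 against 2.71 for 24 to 32 and 3.18 against 3.52 for 33 to 117. No alpha peak of the deposited list had fewer than 4.70 tags for each input tag, and the part of this limit in the low input was not tested. The highest input was 15 tags, at chr4:108785626-108785836 (148 beta and 65 alpha positions). Sites with 13 input tags included chr16:24061756-24061966 (109 and 43 positions) and chr17:24985679-24985889 (138 and 43).

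Alpha and beta centres lay slightly farther apart at these sites than at other pairs. The median distance was 31 bp (quartiles 14 and 54 bp), against 28 bp over all pairs and 27 bp for both balanced and alpha-leaning pairs. The centres were within 50 bp of each other at 733 sites (72.1%), against 75.2% of all pairs. Of the 6258 pairs with centres no more than 25 bp apart, 6.78% (6.18% to 7.42%) were beta-leaning, and of the 757 pairs more than 100 bp apart 10.2% (8.22% to 12.5%) were. For alpha-leaning pairs the same shares were 6.62% and 6.74%. The beta centre lay at the higher coordinate at 485 sites and at the lower one at 521, so there was no common side.

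Neighbouring shared pairs leaned the same way, the more so the nearer they lay. Within 2 kb of a beta-leaning site there were 222 distinct shared pairs, of which 48 were themselves beta-leaning, or 21.6% (16.7% to 27.5%), and 3 alpha-leaning (1.35%). The background is the 7.64% of all pairs that are beta-leaning. At 2 to 10 kb 13.4% of 658 neighbours were beta-leaning, at 10 to 50 kb 9.65% of 1679, and at 50 to 200 kb 7.90% of 3102. The median centred ratio of the neighbours was -0.33, -0.28, -0.18 and -0.07 over the same steps. Around alpha-leaning pairs the order was the opposite: 2.17% of 138 neighbours within 2 kb were beta-leaning, and 6.25% at 50 to 200 kb. Around balanced pairs the share was 8.58% within 2 kb and 7.59% at 50 to 200 kb. A pair can be a neighbour in more than 1 step and class, and neighbours are not independent of each other, so these shares describe the maps and were not tested.

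**Figure D4:**
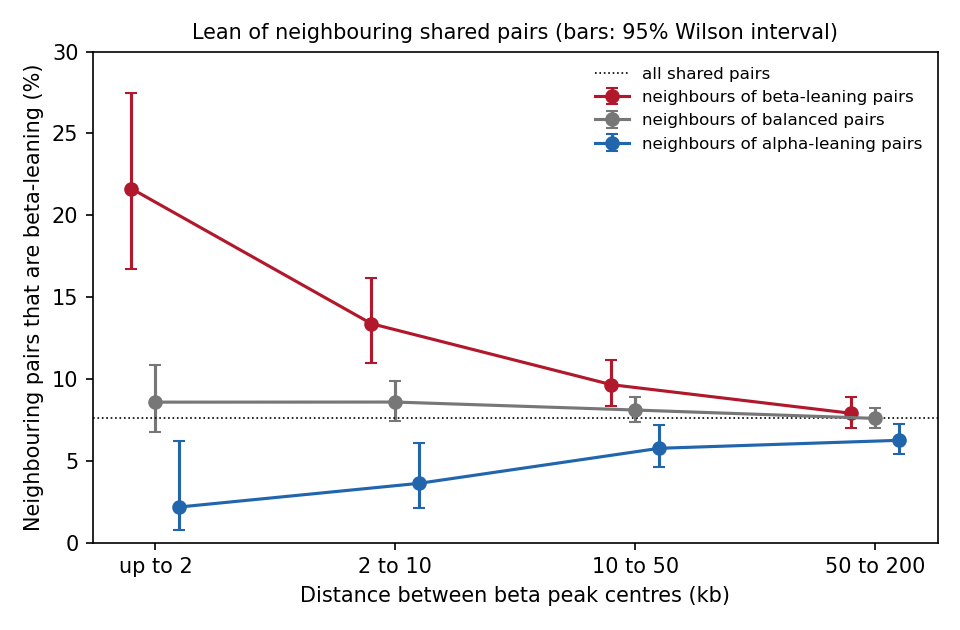
Share of neighbouring shared pairs that are beta-leaning (y axis, %) by the distance between beta peak centres (x axis, kb), around beta-leaning, balanced and alpha-leaning pairs; bars are 95% Wilson intervals and the dotted line is the share over all pairs. Around beta-leaning pairs the share is 21.6% within 2 kb and 7.90% at 50 to 200 kb.

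Peaks found in 1 list only followed the same order. Within 50 kb of a beta-leaning site there were on average 1.58 beta peaks without an alpha partner and 1.37 alpha peaks without a beta partner, a ratio of 1.15. The ratio was 1.00 around balanced pairs and 0.815 around alpha-leaning pairs. Beta-only peaks outnumbered alpha-only peaks around 425 sites (41.8%) and were outnumbered around 312 (30.7%), against 35.4% and 35.4% of all shared pairs. Another beta peak lay within 50 kb of 92.9% of the sites (91.2% to 94.3%) and another alpha peak within 50 kb of 91.5% (89.7% to 93.1%), against 89.3% and 89.6% of all shared pairs. At 44 sites (4.33%) no other peak of either list lay within that distance, against 6.49% of all shared pairs.

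Most beta-leaning sites nevertheless stood apart from one another. With gaps of up to 50 kb joined, 746 of them (73.4%) formed no group, 196 lay in 98 groups of 2, 63 in 21 groups of 3 and 12 in 3 groups of 4. No like count for other shared pairs is given here, so this spacing is not shown to be particular to them. The group on chromosome 10 ran from 110971845 to 111037083 (65.2 kb). From its start, its 4 beta-leaning sites held 38, 61, 74 and 109 beta and 12, 23, 21 and 33 alpha positions. Another shared pair inside it, with 78 and 54 positions, was at -0.45. The group on chromosome 12, from 72937369 to 73012518 (75.2 kb), held 8 shared pairs, 4 of them beta-leaning with 148, 93, 48 and 46 beta and 61, 40, 20 and 17 alpha positions, and the least leaning pair was at -0.19. The group on chromosome 15, from 3534457 to 3590454 (56.0 kb), held 5 shared pairs, 4 of them beta-leaning with 63, 59, 72 and 86 beta and 26, 25, 32 and 28 alpha positions, and the remaining pair was at -0.64. All 18 shared pairs of these 3 groups lay below the median ratio, but 12 of them did so by the rule. The groups were also picked for holding the most beta-leaning sites, so the count describes them only. The groups on chromosomes 10, 12 and 15 held 1, 1 and 0 alpha-only peaks and 1, 2 and 1 beta-only peaks.

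Beta-leaning sites were found on every chromosome that had pairs. On the 18 autosomes they numbered 37 to 80 and made up between 5.99% (chromosome 15) and 9.72% (chromosome 12) of the pairs. For 17 of these 18 the Wilson interval included the 7.64% of all pairs, the exception being chromosome 3 with 9.63% (7.73% to 11.9%). On 14 autosomes beta-leaning pairs outnumbered alpha-leaning ones, with chromosome 6 at 80 against 36, and on chromosomes 2, 7, 11 and 17 they were fewer. On the X chromosome 17 of 118 pairs were beta-leaning (14.4%, 9.19% to 21.9%) and 7 alpha-leaning. All X pairs had a shifted median of -0.23, where autosomes ran from -0.07 to 0.05, and the tags around X windows were shifted by -0.27. When X pairs were centred on their own median, 8 (6.78%) were beta-leaning. The X sites held a median of 48 beta and 16 alpha positions. Male mice carry a single X, and mean input at X pairs was 2.00 tags in the beta window against 3.64 to 4.04 on autosomes. Whether either bears on the shifted ratio was not tested.

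**Figure D5:**
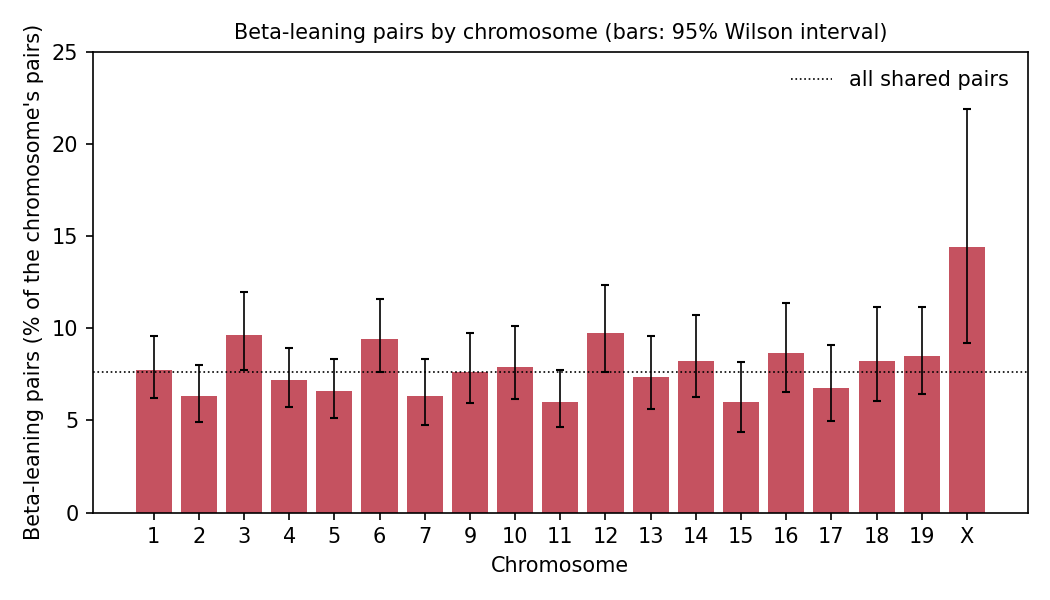
Beta-leaning pairs as a share of each chromosome's shared pairs (y axis, %) for the 19 chromosomes with pairs (x axis); error bars are 95% Wilson intervals and the dotted line is the 7.64% of all pairs. The autosomes lie between 5.99% and 9.72% and the X chromosome at 14.4%, with the widest interval.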

How the data were processed

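The submitters' processing notes name Bowtie, a short read aligner, HOMER, a peak caller, and the mm9 assembly; versions, filters on reads and library totals are not given in the sources used. Each antibody has 1 deposited peak list, made by the authors from a single library. Per the file headers, the deposited columns are raw tag counts, a peak score and an FDR, a q-value from the authors' peak caller that is 0 in every row. Score and FDR were not used. Counts are not scaled to library size, so each ratio was set against its own median over the 13314 shared pairs.

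Tags around a window are the 10 kb count less the window's tags. For them, and for tags over input, 1 was added to both parts of the ratio. Shares have 95% Wilson intervals and single ratios exact binomial ones. No test was made.

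The rule for named sites took the 10 with the strongest lean, the 10 with the most beta and the 5 with the most alpha positions, 3 on either side of the threshold, 3 with the highest input (ties by position), and the largest groups. Members and lists were chosen with earlier results of these data known. Gene location and motifs were planned but not analysed here, for want of mm9 annotation and sequence. Pairing and the rule were also run on simulated lists. The changes made there were larger than the lean at most beta-leaning sites, so the run does not show how pairs near the threshold are called. Software: Python 3.11.15 with numpy 2.4.6, with pandas 2.3.3, and with scipy 1.17.1.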

Additional observations from a re-analysis of the deposited data

Results flagged for a closer look

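On chromosome 8 the alpha list had 1415 peaks that could form no pair, because the beta list as used here had 0 peaks there; they drew attention as signal outside the comparison. Their median of 24 unique positions was close to the 23 of the other chromosomes. Whether any of them would lean to beta was not measured.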

How the results depend on the processing

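The number of beta-leaning pairs was 1017 and became 710 to 1293 under 8 alternatives that stayed within 1.5 times of it, 1 of which (centring within deciles of height) was chosen after the data were seen. It was 1762 with tags over input (732 of them in the main set), 661 of 9401 pairs with tags at least 8 times input in both lists, and, chosen after the data were seen, 424 of 6258 pairs with centres within 25 bp; the last 2 keep fewer pairs. The 710 came from centring on the pairs above the median height. A similar count did not always mean the same sites. Of the 1107 pairs with tag density over the surrounding 10 kb, 503 were in the main set, the lowest overlap of the 8 alternatives. The median distance between centres was 27 bp with 50% of both windows overlapping, and the mean input in the beta window 2.59 tags in pairs with tags at least 8 times input, since these rules bound the distance and the input. Another beta peak lay within 10 kb of 71.0% and within 100 kb of 97.2% of the sites. The X chromosome share was 6.78% when centred on the X median, an alternative chosen after the data were seen. With all tags, the 24 named sites inside the threshold apart from the 3 just inside it all stayed past it; of those 3, 2 did and chr5:121017073-121017283 moved to -0.74. Settings for gene location and motifs were not run. No paired analysis was possible because there was only 1 library for each antibody, so no library could be left out either. Alpha peaks of these sites held as few as 12 unique positions, which sets the width of the single-site intervals.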
